A study of Rattus norvegicus with 9 samples.

Results

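The insulin signalling genes described here are 7 rat genes, Insr, Irs1, Irs2, Pik3r1, Akt2, Foxo1 and Igfbp1, taken by name for their place in the hepatic insulin pathway. All 7 were found among the 15565 genes shared by the deposited tables, and all 7 were among the 12041 genes with enough reads to be tested. They were followed through 9 liver RNA-seq libraries from male rats of the strain labelled SD, in 3 groups of 3. The SCL-treated group received SCL, which stands for Smilax china L., a plant, and its liver is labelled fatty. The high-fat diet group ate that diet for 8 weeks to induce fatty liver, and the normal diet group is the control. The diet of the SCL-treated rats, the dose of SCL, the ages and the feeding state at collection are not stated in the labels, and the text on the design writes SCS where the sample labels write SCL. No label says whether each library is a separate animal, so the p-values measure the spread between these libraries, which may be technical.

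In the liver cell, insulin binds the receptor encoded by Insr, a tyrosine kinase that phosphorylates the adaptor proteins IRS1 and IRS2. The adaptors recruit phosphoinositide 3-kinase through its p85 alpha regulatory subunit, encoded by Pik3r1, and the lipid it makes activates AKT2, the main AKT kinase of insulin action in liver. AKT phosphorylates the transcription factor FOXO1 and drives it out of the nucleus, and genes that FOXO1 activates, Irs2 and Igfbp1 among them, are then transcribed less. Igfbp1 encodes a secreted protein that binds insulin-like growth factors. Most of this pathway works through phosphorylation, which RNA-seq does not measure, so the values below are transcript levels and not pathway activity.

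The 300-base promoter windows of the 6 members present in the RefSeq promoter table of the GRCr8 assembly, running from 250 bases before to 50 bases after the gene's start, were searched on both strands for GTAAACA, a core bound by FOXO factors, and CAAAACA, the core of the insulin response element. The table has no entry for Irs2. The Insr and Igfbp1 windows are shown because they were the 2 that held a match, given in capitals in the gene's 5′ to 3′ direction. Insr lies on the minus strand, with its window at chr12:6128754-6129053, and Igfbp1 on the plus strand, with its window at chr14:86261027-86261326.
Insr: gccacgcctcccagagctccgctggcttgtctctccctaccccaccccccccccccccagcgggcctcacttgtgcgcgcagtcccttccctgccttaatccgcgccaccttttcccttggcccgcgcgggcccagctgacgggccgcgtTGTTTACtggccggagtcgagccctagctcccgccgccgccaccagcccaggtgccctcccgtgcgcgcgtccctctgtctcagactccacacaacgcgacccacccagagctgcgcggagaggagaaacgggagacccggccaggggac
Igfbp1: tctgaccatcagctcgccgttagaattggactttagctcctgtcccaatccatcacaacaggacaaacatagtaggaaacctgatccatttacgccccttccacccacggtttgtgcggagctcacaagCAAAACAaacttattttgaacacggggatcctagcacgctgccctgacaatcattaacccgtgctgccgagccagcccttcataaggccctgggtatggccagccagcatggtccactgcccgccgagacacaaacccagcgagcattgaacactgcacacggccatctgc
The capitals in Insr are TGTTTAC, the reverse complement of GTAAACA, and begin 100 bases before the start. The capitals in Igfbp1 are CAAAACA and begin 121 bases before the start. GTAAACA was present in 3.78% and CAAAACA in 6.283% of the 33469 promoters of the table, and a match describes these letters only. The windows differ in composition: G and C made up 71.3% of the Insr window, with 28 CpG dinucleotides, and 54.0% of the Igfbp1 window, with 13, where the table's median was 51.67% and 7. The windows of Irs1, Pik3r1 and Foxo1 held no match and were 70.3%, 75.3% and 75.0% G and C, and that of Akt2 held no match and was 49.7%.

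The libraries held 12413774 to 15521648 reads counted to genes. All 8 hepatocyte markers on the list were detected, and their summed level ranged from 75320 to 231750 CPM (read counts scaled to library size) in SCL-treated livers, 74773 to 149730 CPM in high-fat diet livers and 152720 to 190180 CPM in normal diet livers. Their median log2 fold change was -0.52 for high-fat diet against normal diet. The 8 Kupffer cell and macrophage markers summed to 195 to 576 CPM with SCL, 216 to 487 CPM on the high-fat diet and 448 to 646 CPM on the normal diet, with a median of -0.68 for high-fat diet against normal diet. The 6 stellate cell markers summed to 153 to 240 CPM (SCL-treated), 178 to 296 CPM (high-fat diet) and 245 to 480 CPM (normal diet), with a median of -0.75 for SCL-treated against normal diet. The 3 erythroid markers summed to 358 to 1224 CPM, 232 to 1203 CPM and 131 to 417 CPM in the same order of groups, with medians of 1.10 for high-fat diet and 1.44 for SCL-treated against normal diet. No marker of the 13 cell type lists passed edgeR's adjusted threshold in any comparison, and the part of these markers in the members' values was not tested. In these bulk samples, fewer cells of a type and less RNA per cell cannot be told apart. Transcripts of the mitochondrial genome, a sign of how a library's RNA is made up, took 10.97%, 49.0% and 7.04% of reads in SCL-treated replicates 1, 2 and 3, 4.90%, 18.8% and 44.1% in those of the high-fat diet, and 4.63%, 3.85% and 11.2% in those of the normal diet. The members' relation to this share is given below.

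Compared per length as the deposited FPKM, the members covered a wide range in liver. Igfbp1 had the highest level and Akt2 the next in each of the 9 libraries, at 465 ± 293 and 19.4 ± 8.91 FPKM (mean ± SD, n = 9). Below them stood Pik3r1 at 9.16 ± 5.86 FPKM, Irs2 at 6.60 ± 4.68 FPKM and Insr at 6.29 ± 3.43 FPKM, whose order changed from library to library, so that these neighbours did not differ beyond their spread. Foxo1, at 3.16 ± 3.75 FPKM, and Irs1, at 2.43 ± 1.62 FPKM, were the lowest on average. Foxo1 was last in 6 libraries, Irs1 in 2 and Irs2 in 1, which was high-fat diet replicate 1. Within a gene the spread over libraries was widest for Foxo1, whose highest CPM was 18.6 times its lowest, followed by Igfbp1 at 9.71 times, Irs2 at 8.75 times, Pik3r1 at 4.71 times, Irs1 at 4.46 times, Insr at 3.41 times and Akt2 at 3.20 times. Foxo1 also rested on the fewest reads, 13 to 448 per library, so its low values carry the largest counting error of the 7.

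**Figure D1:**
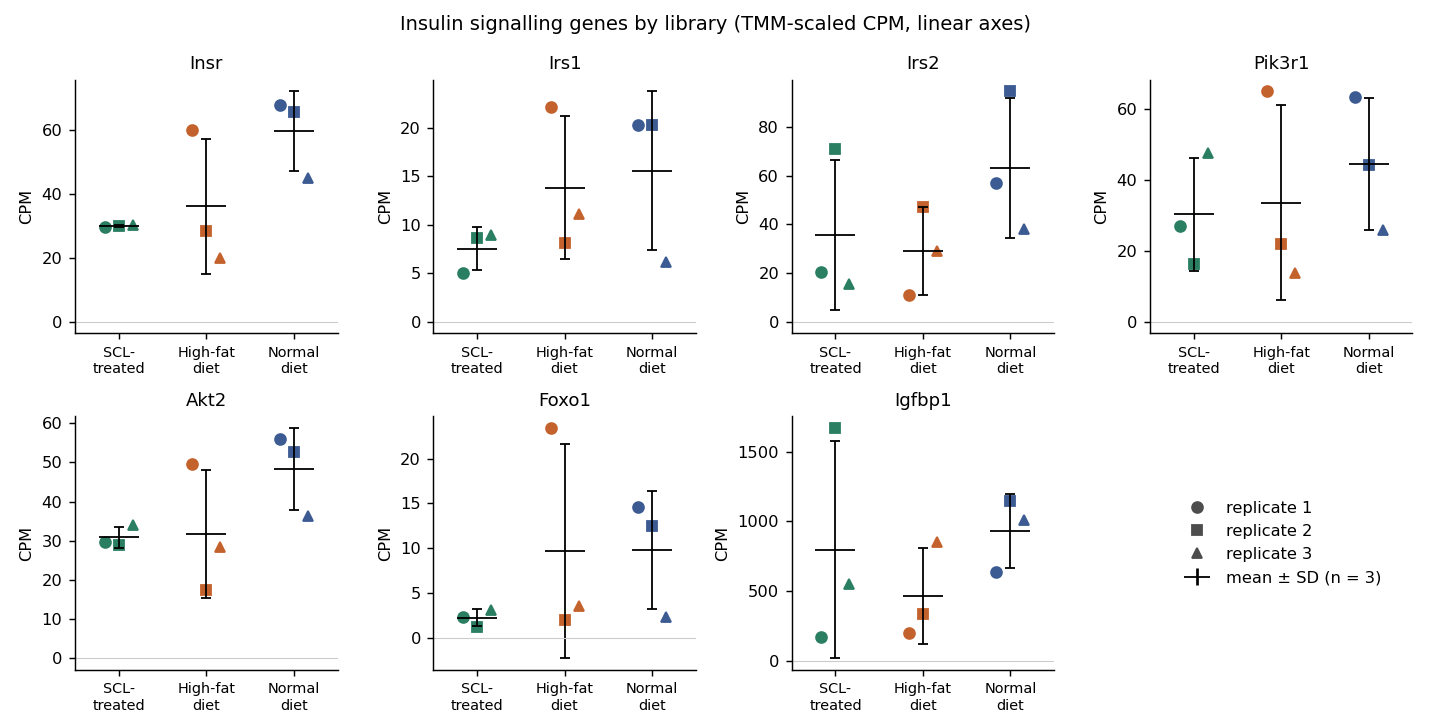
TMM-scaled CPM (linear axes) of each of the 7 insulin signalling genes, with 1 point per library, marked by replicate, and the mean ± SD of 3 libraries in black, for the SCL-treated, high-fat diet and normal diet groups. The SCL-treated libraries lie close together for Insr, between 29.6 and 30.3 CPM, and far apart for Igfbp1, between 172 and 1670.2 CPM.

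The receptor gene Insr had 29.6, 29.8 and 30.3 CPM in SCL-treated replicates 1, 2 and 3, 59.9, 28.2 and 19.9 CPM in those of the high-fat diet, and 67.7, 65.6 and 45.0 CPM in those of the normal diet. Every SCL-treated library was below every normal diet library, while high-fat diet replicate 1 stood within the normal diet range and the other 2 high-fat diet libraries below it.

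The adaptor gene Irs1 had 4.97, 8.64 and 8.95 CPM in SCL-treated livers, 22.2, 8.17 and 11.1 CPM in high-fat diet livers, and 20.3, 20.3 and 6.14 CPM in normal diet livers. Its 3 high libraries were high-fat diet replicate 1 and normal diet replicates 1 and 2, and the groups overlapped. Irs2, the adaptor whose transcription FOXO1 raises, had 20.2, 71.0 and 15.5 CPM in SCL-treated livers, 10.8, 47.2 and 29.1 CPM in high-fat diet livers, and 57.0, 94.6 and 37.9 CPM in normal diet livers. The second replicate was the highest of its group in all 3 groups, and the groups overlapped.

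Pik3r1, the kinase's regulatory subunit, had 27.1, 16.2 and 47.6 CPM in SCL-treated livers, 65.0, 21.8 and 13.8 CPM in high-fat diet livers, and 63.4, 44.1 and 25.9 CPM in normal diet livers. The lowest SCL-treated and the lowest high-fat diet library were the 2 with over 40% mitochondrial reads, and the groups overlapped. Akt2 had 29.8, 28.8 and 34.0 CPM in SCL-treated livers, 49.7, 17.5 and 28.3 CPM in high-fat diet livers, and 56.0, 52.7 and 36.4 CPM in normal diet livers. As for Insr, all SCL-treated libraries were below all normal diet libraries and high-fat diet replicate 1 was within the normal diet range.

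Foxo1, the transcription factor that AKT restrains, had 2.31, 1.26 and 3.16 CPM in SCL-treated livers, 23.4, 2.04 and 3.56 CPM in high-fat diet livers, and 14.6, 12.4 and 2.31 CPM in normal diet livers. The libraries fell into 2 sets, with high-fat diet replicate 1 and normal diet replicates 1 and 2 at 12.4 CPM or more and the other 6 at 3.56 CPM or less. The same 3 libraries were the upper set of Irs1, at 20.3 CPM or more against 11.1 CPM or less. Igfbp1, at the end of the pathway, had 172, 1670.2 and 551.5 CPM in SCL-treated livers, 202, 335 and 856 CPM in high-fat diet livers, and 637, 1144 and 1011 CPM in normal diet livers. SCL-treated replicates 1 and 2 were the lowest and the highest of all 9 libraries, and the groups overlapped.

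Against the normal diet, the high-fat diet livers had fold changes below 0 for all 7 members, but no member passed the test. Genes were called at an adjusted p under 0.05 in edgeR's quasi-likelihood test with Benjamini-Hochberg adjustment over all genes tested, and 0 of 7 members were called where 0.0083% of all genes were, a single gene. DESeq2 and limma-voom also called 0 members, and 0.415% and 0.216% of all genes. At an unadjusted p under 0.05 edgeR gave 0 members, where 4.32% of all genes passed and 1.55% passed with a fold change below 0. A fold change below 0 was no rarity, at 47.2% of all genes. The members' median log2 fold change was -0.60, beside 0.03 over all genes tested. Irs2 had the lowest value, with a log2 fold change of -1.12 (SE 0.65, edgeR adjusted p = 0.911), and averaged 29.0 ± 18.2 CPM in high-fat diet livers and 63.2 ± 28.9 CPM in normal diet livers (SD, n = 3 each). Igfbp1 followed at -1.0 (SE 0.74, edgeR adjusted p = 0.911), with 464 ± 345 CPM in high-fat diet livers and 930 ± 263 CPM in normal diet livers (SD, n = 3 each).

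The receptor, the kinase chain, Irs1 and Foxo1 stood closer to 0 in this comparison. Insr had a log2 fold change of -0.72 (SE 0.38), Akt2 of -0.60 (SE 0.36), Pik3r1 of -0.40 (SE 0.58) and Irs1 of -0.17 (SE 0.50), and their edgeR adjusted p ranged from 0.911 to 0.962. Foxo1 stood at -0.01 (SE 0.86, edgeR adjusted p = 0.998). Both Foxo1 groups spanned the 2 sets of libraries, with 9.67 ± 11.9 CPM in high-fat diet livers and 9.79 ± 6.57 CPM in normal diet livers (SD, n = 3 each). None of the 7 members separated the groups without overlap, which 10.6% of all genes did, 5.33% with the high-fat diet higher and 5.27% with it lower.

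High-fat diet replicate 1, whose sample title is formed unlike the others of its group, for reasons not stated, decided several of these values. Without it, the log2 fold change was -1.82 for Foxo1, -1.33 for Pik3r1, -1.32 for Insr, -1.09 for Akt2 and -0.71 for Irs1, all farther from 0 than with it, while Irs2 at -0.74 and Igfbp1 at -0.65 were nearer to 0 and no longer the lowest. Without that library the smallest edgeR adjusted p among the members was 0.118, for Insr. With the log2 mitochondrial share as a covariate, Irs2 stood at -2.11 and Igfbp1 at -2.17 (edgeR adjusted p = 0.699 and 0.561), Insr at -0.41 and Akt2 at -0.32 were nearer to 0, and Irs1 at 0.20, Pik3r1 at 0.26 and Foxo1 at 0.90 were above 0. In the authors' deposited table, where the fold is normal diet over high-fat diet, Irs2 had a log2 fold change of 1.14 (adjusted p = 0.693) and Igfbp1 of 1.02 (adjusted p = 0.731).

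**Figure D2:**
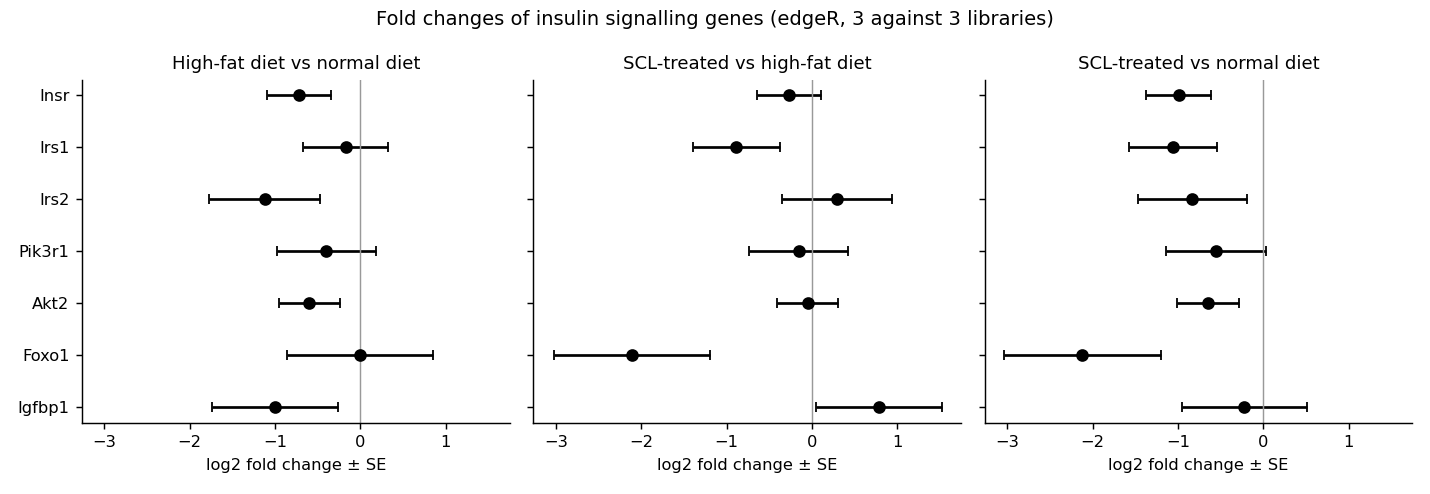
Log2 fold change of the 7 members in the 3 comparisons, with points for the edgeR estimate and bars for 1 standard error on each side. All 7 points lie below 0 for high-fat diet against normal diet and for SCL-treated against normal diet, and for SCL-treated against high-fat diet the points run from -2.11 for Foxo1 to 0.78 for Igfbp1.

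SCL-treated livers were next set against high-fat diet livers. The diet of the SCL-treated rats is not stated, so a difference from the plant and one from diet cannot be told apart here. No gene of the 12041 passed the adjusted threshold in edgeR (0%), so 0 of 7 members were called, and DESeq2 called 1 gene and limma-voom 0, no member among them. At an unadjusted p under 0.05 edgeR gave 235 genes, or 1.95%, and 1 member, Foxo1, which was among the 1.34% of genes that passed with a fold change below 0. The members were mixed in sign, 5 below 0 and 2 above, where 53.3% of all genes were below 0, and their median log2 fold change was -0.15, beside -0.03 over all genes. None of the 7 separated the 2 groups without overlap, which 4.78% of all genes did, 2.36% with SCL-treated livers higher and 2.43% with them lower.

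Foxo1 had the lowest fold change of this comparison, at -2.11 (SE 0.92, edgeR adjusted p = 1.00), with 2.24 ± 0.95 CPM in SCL-treated livers and 9.67 ± 11.9 CPM in high-fat diet livers (SD, n = 3 each). Without high-fat diet replicate 1 it was -0.30. Of the other 2 high-fat diet libraries, 1 lay within the SCL-treated range of 1.26 to 3.16 CPM, at 2.04 CPM, and 1 above it, at 3.56 CPM. Irs1 stood at -0.88 (SE 0.51) and at -0.36 without high-fat diet replicate 1. Igfbp1 stood at 0.78 (SE 0.74) and Irs2 at 0.29 (SE 0.64), and both were below 0 without SCL-treated replicate 2, at -0.36 and -0.69. Insr, Pik3r1 and Akt2 lay within 1 standard error of 0, at -0.27 (SE 0.38), -0.15 (SE 0.58) and -0.05 (SE 0.36). All 3 were above 0 without high-fat diet replicate 1, at 0.32, 0.77 and 0.44. In the authors' deposited table, where the fold is SCL-treated over high-fat diet, Foxo1 had a log2 fold change of -2.14 with an adjusted p of 1.

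SCL-treated livers were also compared with normal diet livers. This comparison and that of the high-fat diet with the normal diet share the normal diet libraries. All 7 members had fold changes below 0, where 48.2% of all genes did, with a median of -0.83 beside 0.03 over all genes. EdgeR called 0 of 7 members and 0.0083% of all genes, and at an unadjusted p under 0.05 it gave 2 members, Insr and Foxo1, both below 0, where 6.88% of all genes passed and 3.55% passed below 0. DESeq2 called 0 members and 0.332% of all genes. Insr and Akt2 were lower in every SCL-treated library than in every normal diet library, a separation seen in this direction for 7.81% of all genes, in the other for 7.47% and in either for 15.3%. Insr averaged 29.9 ± 0.35 CPM in SCL-treated livers and 59.5 ± 12.5 CPM in normal diet livers (SD, n = 3 each), a log2 fold change of -0.99 (SE 0.38, edgeR adjusted p = 0.665). Akt2 averaged 30.9 ± 2.73 CPM in SCL-treated livers and 48.4 ± 10.5 CPM in normal diet livers (SD, n = 3 each), a log2 fold change of -0.65 (SE 0.36, edgeR adjusted p = 0.665).

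The other members overlapped between SCL-treated and normal diet livers. Foxo1 stood at a log2 fold change of -2.12 (SE 0.92) and Irs1 at -1.06 (SE 0.51), both with an edgeR adjusted p of 0.665. Irs2 stood at -0.83 (SE 0.64), Pik3r1 at -0.55 (SE 0.58) and Igfbp1 at -0.22 (SE 0.73), with edgeR adjusted p of 0.686 to 0.923. Limma-voom with library quality weights called 2 members here, Insr at -1.09 (limma adjusted p = 0.041) and Irs2 at -1.86 (limma adjusted p = 0.047), among 1.26% of all genes. Irs2 and Igfbp1 depended on SCL-treated replicate 2, without which they stood at -1.82 and -1.36. With the log2 mitochondrial share as a covariate, Insr stood at -0.52, Akt2 at -0.31, Foxo1 at -0.80 and Irs1 at -0.57, all nearer to 0, Pik3r1 at 0.28, and Irs2 at -1.97 and Igfbp1 at -1.43, both farther from 0.

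The balance between the 2 adaptors was read from the ratio of Irs2 reads to Irs1 reads within a library, which no scaling between libraries can move. It was 4.07, 8.22 and 1.74 in SCL-treated replicates 1, 2 and 3, 0.488, 5.78 and 2.62 in those of the high-fat diet, and 2.80, 4.65 and 6.16 in those of the normal diet. Irs2 had more reads than Irs1 in every library except high-fat diet replicate 1. The log2 ratio averaged 1.95 ± 1.12 in SCL-treated livers, 0.96 ± 1.82 in high-fat diet livers and 2.11 ± 0.58 in normal diet livers (SD, n = 3 each). The difference was -1.15 for high-fat diet against normal diet (two-sided exact permutation p = 0.4), 0.99 between SCL-treated and high-fat diet livers (exact permutation p = 0.6) and -0.16 for SCL-treated against normal diet (exact permutation p = 0.9), and 3 libraries against 3 cannot give a p below 0.1. The difference between SCL-treated and high-fat diet livers was -0.0062 without high-fat diet replicate 1.

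**Figure D3:**
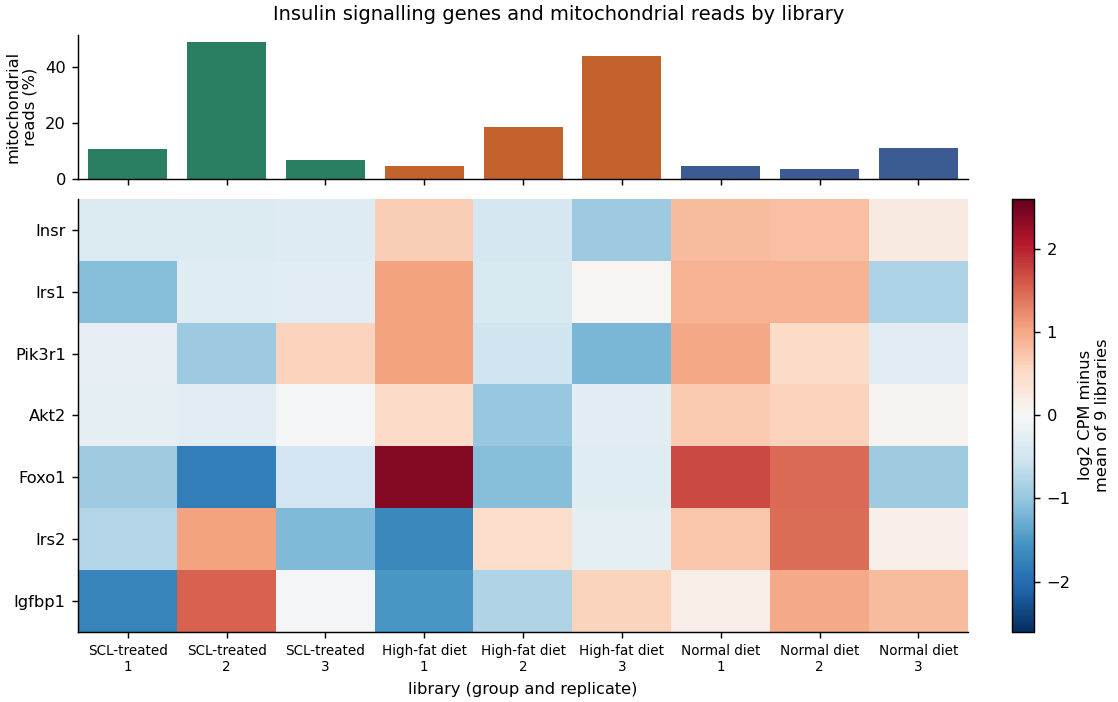
Log2 CPM of each member (rows) minus its mean over the 9 libraries, for the libraries of the SCL-treated, high-fat diet and normal diet groups (columns), with colour showing the difference in log2 units and bars above showing the percent of mitochondrial reads in the same libraries. High-fat diet replicate 1 is above the mean for Insr, Irs1, Pik3r1, Akt2 and Foxo1 and below it for Irs2 and Igfbp1.

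Across the 9 libraries the members did not all vary alike. High-fat diet replicate 1 and normal diet replicates 1 and 2 were the 3 highest libraries for Insr, Irs1, Akt2 and Foxo1. The 3 highest for Irs2 were normal diet replicates 1 and 2 and SCL-treated replicate 2. Those for Igfbp1 were SCL-treated replicate 2 and normal diet replicates 2 and 3. For log2 CPM of Insr and Akt2, Pearson's r was 0.84 (exact permutation p = 0.0040, adjusted p = 0.042 over the 21 pairs of members) and Spearman's rho 0.97 (exact permutation, adjusted p = 0.0035), and r was 0.70 without the 2 libraries farthest from the median of Insr. For Irs2 and Igfbp1, the pair that FOXO1 activates, r was 0.71 (exact permutation p = 0.036, adjusted p = 0.083) and rho 0.73, and r was 0.53 without the 2 farthest libraries. Because Foxo1 and Irs1 split the libraries into separate sets, no pooled r is given for their pairs.

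The same relations were computed within sets and groups of libraries. Within the 6 libraries of the lower Foxo1 and Irs1 set, no pair passed, with exact permutation adjusted p of 0.775 or more, and r was 0.40 for Insr and Akt2, 0.56 for Irs2 and Igfbp1 and 0.25 for Irs1 and Foxo1. After the group means were subtracted, r was 0.74 for Insr and Akt2 and 0.62 for Irs2 and Igfbp1. The smallest p seen with exact permutation within groups was 0.0046, or 0.097 adjusted over 21 pairs, so a single pair could not pass there, and 0 did. The points of the pooled relations share the depth and composition of their libraries.

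**Figure D4:**
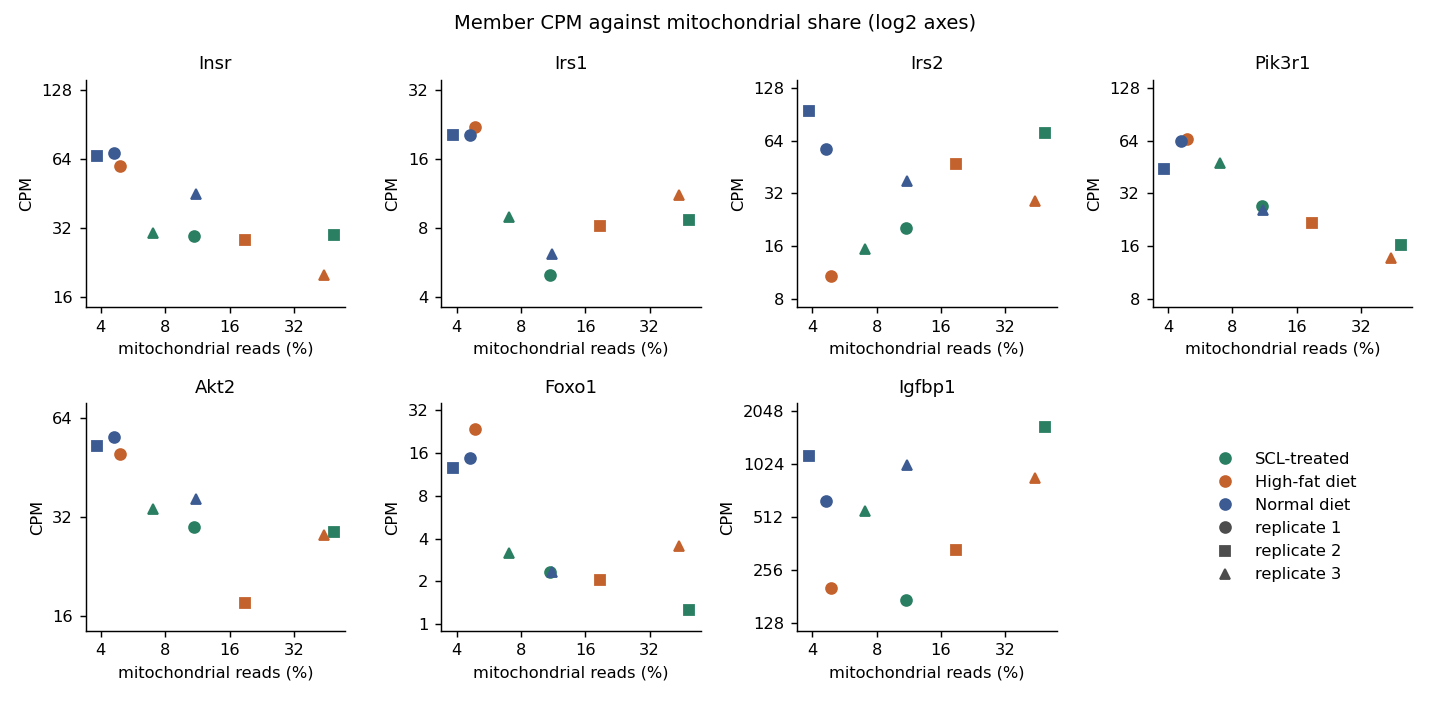
CPM of each member (log axis) against the percent of a library's reads in mitochondrial genome transcripts (log axis), 1 point per library, coloured by group and shaped by replicate. Pik3r1 lies at 65.0 CPM where the share is 4.90% and at 13.8 CPM where it is 44.1%, and the points of Irs2 and Igfbp1 are scattered.

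The mitochondrial share moved with part of the pathway, and how many of all genes moved with it is not given. The log2 CPM of Pik3r1 had a Pearson's r of -0.94 with the log2 share over 9 libraries (exact permutation p = 0.00027, adjusted p = 0.0019 over the 7 members), a rho of -0.87 and an r of -0.89 without the 2 libraries farthest from the median share. In the 6 libraries of the lower Foxo1 set its r was also -0.94 (exact permutation, adjusted p = 0.029). Insr had an r of -0.83 (exact permutation, adjusted p = 0.027) and Akt2 an r of -0.73 (exact permutation, adjusted p = 0.042), and in the 6 libraries their r was -0.56 and -0.31, which did not pass. Over the SCL-treated libraries, with shares of 7.04% to 49.0%, Insr lay between 29.6 and 30.3 CPM and Akt2 between 28.8 and 34.0 CPM. Over the high-fat diet libraries, with shares of 4.90% to 44.1%, Insr lay between 19.9 and 59.9 CPM and Akt2 between 17.5 and 49.7 CPM. For Irs1 and Foxo1, which split the libraries into sets, r in the 6 libraries was 0.55 and -0.36 (exact permutation, adjusted p = 0.404 and 0.582). Irs2, at 0.15, and Igfbp1, at 0.32, had exact permutation adjusted p of 0.695 and 0.455. The mean share was 22.3% ± 23.2 in SCL-treated, 22.6% ± 19.9 in high-fat diet and 6.54% ± 4.01 in normal diet livers (SD, n = 3 each), and its part in the members' differences between groups was not tested beyond the covariate values given with each comparison.

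The rest of the pathway was read from 9 lists of 101 genes in all, of which 97 were in both tables and 93 were tested. EdgeR called 0 of 93 in each of the 3 comparisons. At an unadjusted p under 0.05, 9 of 93 passed for high-fat diet against normal diet, 3 above and 6 below 0, where 4.32% of all genes passed. For SCL-treated against high-fat diet 2 of 93 passed, 1 in each direction, where 1.95% of all genes did, a share near that of the lists. For SCL-treated against normal diet 14 of 93 passed, 4 above and 10 below 0, where 6.88% of all genes did. The lists' median log2 fold changes were -0.13, -0.14 and -0.23 in that order of comparisons. Since no gene of the lists passed edgeR's adjusted threshold, the values below describe levels only.

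Genes that insulin raises in hepatocytes stood at a median of 0.58 on the log2 scale over 8 tested genes for high-fat diet against normal diet, and 3 of the 8 passed the unadjusted threshold, all above 0, where 4.32% of all genes passed in either direction. The other direction was also present: 3 of the 8 were below 0, with Acly, which makes acetyl-CoA for lipid synthesis, at -0.59 (SE 0.41) and Acaca, which makes malonyl-CoA, at -0.25 (SE 0.78). For SCL-treated against high-fat diet 7 of the 8 were below 0, where 53.3% of all genes were, and 0 passed the unadjusted threshold. For SCL-treated against normal diet Acly stood at -1.20 (SE 0.42, edgeR adjusted p = 0.665, limma adjusted p = 0.041). Angptl8, a secreted regulator of lipoprotein lipase, had 70.8, 97.5 and 90.2 CPM in high-fat diet livers and 30.5, 11.1 and 27.4 CPM in normal diet livers, with a log2 fold change of 1.91 (SE 0.63, edgeR adjusted p = 0.911). In SCL-treated livers Angptl8 had 75.9, 37.5 and 258.6 CPM. Its log2 fold change for SCL-treated against normal diet was 2.43 (SE 0.64, edgeR adjusted p = 0.665, DESeq2 adjusted p = 0.034, limma adjusted p = 0.038). Neither the SCL-treated nor the high-fat diet libraries overlapped with those of the normal diet. Such a separation upward was seen for 5.33% of all genes with the high-fat diet and for 7.47% with SCL.

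Genes that FOXO1 raises or insulin lowers had a median of -0.25 over 11 tested genes in high-fat diet against normal diet livers, and 4 of them passed the unadjusted threshold, all below 0, where 1.55% of all genes passed below 0. Of the 11, 3 were above 0, Klf15 at 0.02, Cited2 at 0.32 and G6pc at 0.40, named after their values were seen. For SCL-treated against normal diet 8 of the 11 were below 0, where 48.2% of all genes were, with a median of -0.46. At the unadjusted threshold 4 passed, 3 below 0 and 1 above, where 6.88% of all genes passed. Cited2, a transcriptional coregulator, stood at 1.11 for SCL-treated against normal diet (SE 0.44, edgeR adjusted p = 0.665, limma adjusted p = 0.038). Pdk4 stood at -1.94 there (SE 0.52, edgeR adjusted p = 0.665, limma adjusted p = 0.038). Pck1, the key enzyme of gluconeogenesis from lactate and amino acids, had 2602, 1675 and 1139 CPM in high-fat diet livers and 4428, 4890 and 2619 CPM in normal diet livers. The highest high-fat diet library was just below the lowest normal diet library, a separation seen in this direction for 5.27% of all genes. The log2 fold change of Pck1 was -1.14 (SE 0.42, edgeR adjusted p = 0.911). Sesn1, a stress-responsive inhibitor of mTORC1 signalling, stood at -0.87 (SE 0.28) and Ppargc1a, a coactivator of gluconeogenic genes, at -2.55 (SE 0.97), both with an edgeR adjusted p of 0.911. Ppargc1a was near the floor, with 0.63, 0.63 and 0.17 CPM in high-fat diet livers and 4.39, 3.46 and 0.80 CPM in normal diet livers. Irs2 and Igfbp1, themselves known FOXO1 targets, also had fold changes below 0 in this comparison, as 47.2% of all genes did, and neither was called. Whether FOXO1 activity differed was not tested.

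Of 20 tested genes that restrain insulin signalling, 8 were above and 12 below 0 for high-fat diet against normal diet. Only 1, Socs3, passed the unadjusted threshold there, where 4.32% of all genes did. Socs3, an inducible inhibitor of the receptor and its adaptors, had 4.76, 3.49 and 2.28 CPM in SCL-treated livers. It had 1.25, 1.26 and 1.998 CPM, near the floor, in high-fat diet livers, and 4.57, 8.24 and 3.76 CPM in normal diet livers. The high-fat diet libraries were below all others, where 5.27% of all genes were lower without overlap on the high-fat than on the normal diet and 2.36% were higher without overlap with SCL than on the high-fat diet. The log2 fold change was -1.88 for high-fat diet against normal diet (SE 0.46, edgeR adjusted p = 0.661, DESeq2 adjusted p = 0.036) and 1.23 for SCL-treated against high-fat diet (SE 0.46, edgeR adjusted p = 1.00), and these comparisons share the high-fat diet libraries. Ptprf, of the same list, went the other way, with 328, 371 and 636 CPM in high-fat diet livers and 200.5, 169 and 181 CPM in normal diet livers. Its log2 fold change was 1.28 (SE 0.67, edgeR adjusted p = 0.911), and 5.33% of all genes were higher without overlap on the high-fat diet. Pdpk1, the kinase that activates AKT, had 3.67, 2.13 and 3.16 CPM in SCL-treated livers and 10.8, 2.75 and 5.99 CPM in high-fat diet livers, which overlapped, with a log2 fold change of -1.12 (SE 0.51, edgeR adjusted p = 1.00). The receptor and clearance list, with Ide, the protease that degrades insulin, and Ceacam1, which promotes insulin clearance, held no gene at an unadjusted p under 0.05 in any comparison, where Ide stood at -0.20 (SE 0.22) and Ceacam1 at -0.31 (SE 0.27) for high-fat diet against normal diet.

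**Figure D5:**
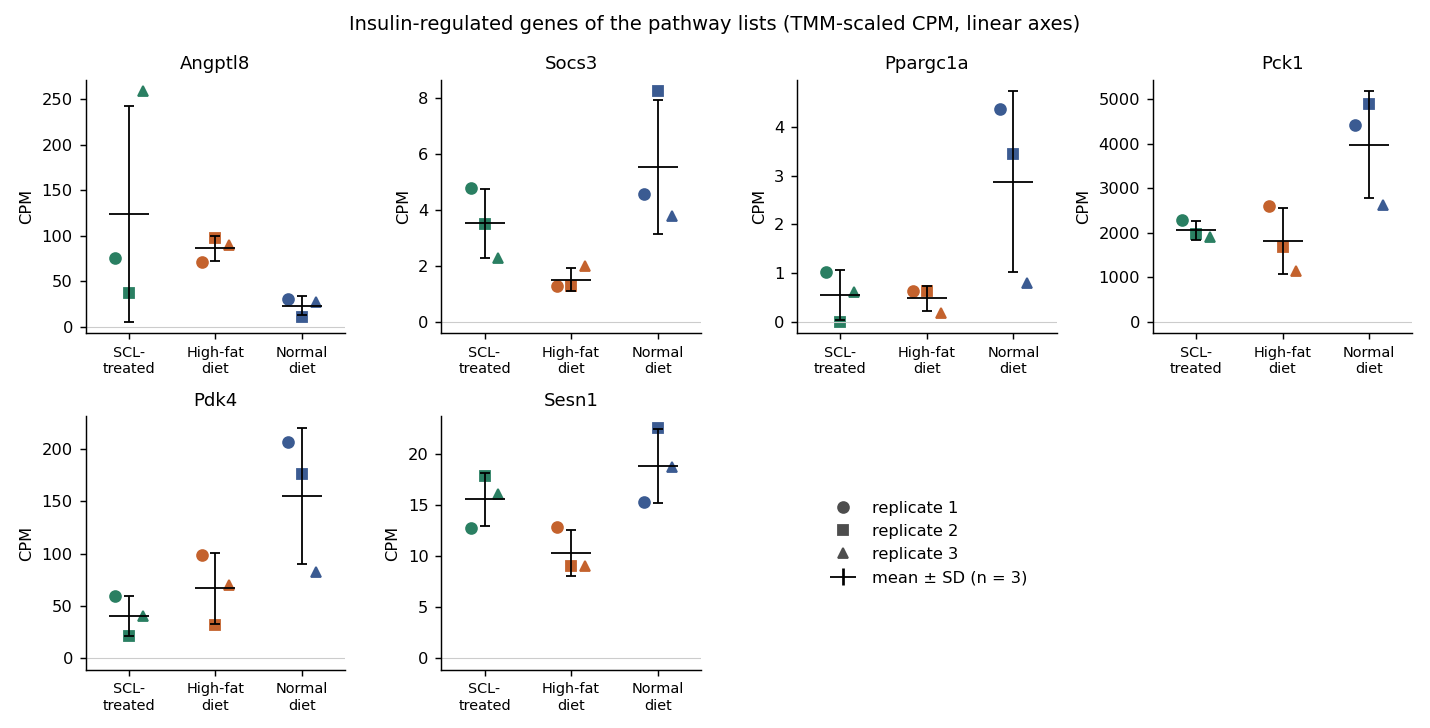
TMM-scaled CPM (linear axes) of Angptl8, Socs3, Ppargc1a, Pck1, Pdk4 and Sesn1, with 1 point per library, marked by replicate, and the mean ± SD of 3 libraries in black, for the SCL-treated, high-fat diet and normal diet groups. Angptl8 is lowest in the normal diet libraries, and Socs3 is lowest in the high-fat diet libraries, at 1.998 CPM or less.

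Outside the pathway, the genes whose log2 CPM over the 9 libraries had the highest Pearson's r with each member, among 9572 candidates with a mean of at least 1 log2 CPM, are given as a description. For Insr they were Klhdc10 (r = 0.985), Glce (r = 0.975) and Dusp3 (r = 0.967), and for Akt2 they were Nfx1 (r = 0.991), Myo1e (r = 0.983) and Cables2 (r = 0.981). Pik3r1 was most like Thtpa (r = 0.984), Myo1d (r = 0.980) and Zc3hav1 (r = 0.975). Foxo1 was most like Prrc1, Dtx3l and Cdc27, and Irs1 most like Myo19 and Copa, with no r given because both members split the libraries into 2 sets. The closest matches of Irs2 and Igfbp1 were looser, with Plekhf1 (r = 0.914), Slc17a4 (r = 0.904) and Pawr (r = 0.884) for Irs2, and Ppp1r3g (r = 0.881), Cables1 (r = 0.878) and Rhof (r = 0.875) for Igfbp1.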

How the data were processed

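Per the labels' protocols, Trizol was used to extract liver RNA and a NEBNext Ultra RNA kit to build the libraries. The authors deposited 2 tables that share the high-fat diet libraries, whose counts were the same in both for every shared gene. Per the file headers, each table holds raw read counts per gene, counts normalized by a size factor (a scaled signal), FPKM, and the log2 fold change with its p-value, raw and adjusted, as the authors computed them. DESeq2 (version not given) and the mouse build mm9 are named in the submitters' processing notes, and mm9 goes against the rat gene names. The aligner, the counter and any use of strand are not stated, so reads of overlapping genes cannot be told apart.

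EdgeR 4.0.16 in R 4.3.3 was run on the deposited counts, with the 9 libraries in 1 fit on group alone (6 residual degrees of freedom). The fit used TMM scaling, filterByExpr with a minimum count of 10 (12041 genes) and Benjamini-Hochberg adjustment, called under 0.05. Single values and correlations had two-sided exact permutation tests (scipy 1.17.1). Log2 CPM used a prior count of 0.5. Alternatives were DESeq2 1.42.0, limma-voom 3.58.1, other scalings and filters, a mitochondrial covariate, a replicate block and leaving out libraries. The edgeR step was tested on simulated counts. Replicates of a group differed by more than sampling noise (chi-square over its degrees of freedom at least 38.5). Depth, 12413774 to 15521648 reads, limits precision at low counts such as those of Foxo1.

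The members, lists and tests were chosen with earlier results of these data known. All 7 members are named, and from each pathway list the 2 genes with the smallest unadjusted p in each of the 2 main comparisons, plus any gene called. For likeness, the 3 genes with the highest r are named for each member. Values of some genes that these rules take are not reported here. Foxo1 and Irs1 were seen to split the libraries into 2 sets after the data were examined, and the 6-library alternative was added then.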

Additional observations from a re-analysis of the deposited data

How the results depend on the processing

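The members' fold changes were recomputed under 19 alternatives each, 133 per comparison. They kept their sign in 121 for high-fat diet against normal diet, 115 between SCL-treated and high-fat diet livers and 131 between SCL-treated and normal diet livers, and a member was called in 0, 0 and 2 of them. DESeq2, its size factors, no count filter and removal of mitochondrial transcripts used nearly the same counts and turned 0 signs. Leaving out a library of the group not compared could hardly move a fold change. The totals of kept signs are therefore no measure of robustness. The causes of the changes below were not tested.

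Genes called for high-fat diet against normal diet, 1 in edgeR, numbered 2 at an adjusted p under 0.1, 2 with no count filter, 0 with library totals only, 0 with only the 6 libraries compared, 0 without the 2 libraries over 40% mitochondrial, 50 in DESeq2, 26 in limma-voom and 1 to 4 when single libraries were left out (4 without normal diet replicate 3, 2 without high-fat diet replicate 3). For SCL-treated against high-fat diet DESeq2 called 1 and edgeR 0. For SCL-treated against normal diet, 1 in edgeR, the count was 40 in DESeq2, 152 in limma-voom, 0 with library totals, 0 without the 2 mitochondrial libraries and 0 to 1 without single libraries, and limma-voom called 2 members, Insr at -1.09 and Irs2 at -1.86.

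Signs turned for high-fat diet against normal diet with the mitochondrial covariate (Irs1 0.20, Pik3r1 0.26, Foxo1 0.90) and, for Foxo1, with library totals (0.067) and without the 2 mitochondrial libraries (0.38). Leaving out single libraries gave Irs1 -0.71 to 0.084 and Foxo1 -1.82 to 0.46. For SCL-treated against high-fat diet they turned in limma-voom (Insr 0.10, Irs2 -0.75, Pik3r1 0.53, Akt2 0.43, Igfbp1 -0.42), with the covariate (Pik3r1 0.013, Akt2 0.0086) and without the 2 mitochondrial libraries (Irs2 -0.70). Leaving out single libraries gave Insr -0.57 to 0.32, Irs2 -0.69 to 0.84, Pik3r1 -0.64 to 0.77, Akt2 -0.34 to 0.44 and Igfbp1 -0.36 to 1.57. For SCL-treated against normal diet, Pik3r1 stood at 0.28 with the covariate, and Igfbp1 at -1.36 to 0.24 without single libraries.

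The log2 Irs2 to Irs1 ratio differed by -0.0062 to 1.78 for SCL-treated against high-fat diet, -0.70 to 0.42 for SCL-treated against normal diet and -1.93 to -0.15 for high-fat diet against normal diet. Of 21 member pairs, 3 passed the adjusted threshold over 9 libraries, 9 with library totals, 0 after subtracting group means, where a single pair could not pass, and 0 in the 6 libraries. Of 7 members, 4 passed against the mitochondrial share and 1 in the 6 libraries. How many of all genes, or of pairs of other genes, would pass is not given, so these counts do not set the members apart.

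Replicate numbers did not pair the libraries throughout: same-numbered libraries had correlations of their deviations from group means of 0.18 to 0.57 for replicate 1 and -0.30 to 0.41 for replicates 2 and 3, and 3 of 9 correlated best with their own number. With the replicate block added, 1, 0 and 1 genes and no member were called, and Pik3r1 (0.10) and Akt2 (0.048) turned sign for SCL-treated against high-fat diet.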

Other observations

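The insulin-like growth factor list, beside Igfbp1, held 10 tested genes, and none had an unadjusted edgeR p under 0.05 in any comparison. Igfbp2, another secreted binding protein, had 4.91, 44.1 and 39.96 CPM in high-fat diet livers and 33.2, 87.2 and 165 CPM in normal diet livers, with a log2 fold change of -1.68 (SE 0.81, edgeR adjusted p = 0.911). Igf1, the growth factor that liver secretes, had 287.6, 192 and 326 CPM in SCL-treated livers and 346, 470.2 and 303.6 CPM in high-fat diet livers, with a log2 fold change of -0.47 (SE 0.31, edgeR adjusted p = 1.00).

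Among FOXO relatives, Foxo3 had 5.58, 0.39 and 2.72 CPM in SCL-treated livers and 23.2, 21.5 and 5.42 CPM in normal diet livers, with a log2 fold change of -2.50 (SE 0.84, edgeR adjusted p = 0.665). As for Foxo1, normal diet replicates 1 and 2 were well above replicate 3.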
